A study of Mus musculus with 6 samples.

Results

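The genes described here encode the protein components of the cytosolic ribosome. They were chosen by symbol alone, as the protein-coding genes named Rpl or Rps with a number and, for some, a letter or paralog ending, together with Rplp0, Rplp1, Rplp2 and Rpsa. Of the 54093 genes of the table, 83 met this rule, 51 of the large (60S) and 32 of the small (40S) subunit. RNA-seq was read from right atria (RAs) of wild-type C57BL/6 mice at postnatal day 21, with 3 sham-operated and 3 volume overload (VO) libraries. VO was made in neonatal pups by an aortocaval fistula (ACF), a puncture between the abdominal aorta and the inferior vena cava that returns more blood to the right heart, and controls had sham surgery. The operation was done under isoflurane with local lidocaine. Pups of either sex were used, and both groups were wild type, with no transgene or Cre. The sources used here do not say whether a library came from 1 RA or from a pool, so each p-value measures the spread between libraries, which may be partly technical. The RNA came from RA myocardium in bulk, a mix of cell types.

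A ribosome is built from ribosomal RNA and a fixed set of proteins, so that the proteins of both subunits are made in matched amounts. Their mRNAs are short and abundant and start with a terminal oligopyrimidine (TOP) tract, a C followed by a run of C and T, through which mTORC1 and the RNA-binding protein LARP1 control their translation as a group. Some ribosomal proteins have paralogs of restricted expression, of which Rpl3l, found in heart and skeletal muscle in place of Rpl3, is the best known in this tissue. Many ribosomal protein mRNAs have also been copied back into the genome as intronless pseudogenes.

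The starts of 4 members are shown because they carry the TOP tract that sets this gene family apart. Each window runs from 10 bases before to 20 bases from the RefSeq start (GRCm38.p6), on the strand of the gene, and capitals mark the tract. The windows lie at chr3:90213629-90213658 (minus strand) for Rps27, a zinc-binding protein of the small subunit, chr4:86857348-86857377 (minus strand) for Rps6, the ribosomal protein phosphorylated downstream of mTORC1, chr11:114668570-114668599 (plus strand) for Rpl38, and chr14:18270967-18270996 (minus strand) for Rpl15.
Rps27: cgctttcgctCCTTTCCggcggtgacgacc
Rps6: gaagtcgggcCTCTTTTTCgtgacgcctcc
Rpl38: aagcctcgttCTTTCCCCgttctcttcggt
Rpl15: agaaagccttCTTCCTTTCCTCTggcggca

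A C at the RefSeq start followed by at least 4 letters that are each C or T, read on the strand of the gene, was found in 13 of the 63 members with a start in the table, or 20.6%. The same letters were found in 3.01% of all 27025 genes with a start and in 3.08% of the 9177 of them that were tested here. By subunit, 7 of 39 large and 6 of 24 small subunit genes had it. A start placed a few bases away hides the tract, so a miss says only that the letters are not at that base.

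A pair of muscle and housekeeping paralogs is shown by the first 60 coding bases, because the values of Rpl3l and Rpl3 below rest on reads being told apart. The sequences are from the GENCODE vM21 transcripts (GRCm38), and capitals mark the 13 bases that differ.
Rpl3l: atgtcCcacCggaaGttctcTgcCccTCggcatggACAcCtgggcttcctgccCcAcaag
Rpl3: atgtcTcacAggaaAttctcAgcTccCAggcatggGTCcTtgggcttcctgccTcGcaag

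Rps27 is shown against its paralog Rps27l and against Rps27rt, an intronless copy on another chromosome that the annotation lists as protein-coding. The first 60 coding bases are given, and capitals mark the 18 of them at which Rps27l and Rps27 differ. Over all 255 coding bases, 76.1% were the same in Rps27l and Rps27, and every base was the same in Rps27 and Rps27rt.
Rps27l: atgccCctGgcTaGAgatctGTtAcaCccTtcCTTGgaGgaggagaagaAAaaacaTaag
Rps27: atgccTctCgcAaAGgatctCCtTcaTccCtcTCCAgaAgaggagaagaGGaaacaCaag
Rps27rt: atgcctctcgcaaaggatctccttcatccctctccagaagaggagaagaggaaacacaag

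Values are FPKM, fragments per kilobase of gene model over a depth set for each library, and gave back whole fragments for every value above 0. That depth was not the number of fragments on genes but 0.943, 1.00 and 0.968 times it in sham 1 to sham 3 and 1.08, 1.02 and 1.01 times it in VO 1 to VO 3, so that the deposited values were already scaled between libraries. Against plain totals this raised every value of sham 1 and lowered every value of VO 1. The libraries held 15963082 to 17237903 fragments on genes, of which members took 232113 to 338786. The atrial muscle genes Myl4, Myl7, Nppa, Sln and Bmp10 were read in every library, at 378 to 8501 FPKM, as the tissue label says. The libraries were not alike in other cells. The summed FPKM of 10 immune genes was 1436 in VO 1 against 293 to 437 in the other 5 libraries, the 5 tested adipocyte genes summed to 508 in VO 3 against 34.0 to 46.9, and the ventricular gene Myl2 ran from 1.54 FPKM in VO 2 to 60.4 in sham 1.

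The first question was how the ribosomal protein genes as a group stood in VO against sham RAs. In these data 79 of the 80 tested members were lower in VO on the log2 scale, where the median member had a log2 fold change of -0.36 (1.28-fold lower), while the median over all 12627 tested genes was -0.01 and 51.5% of them were lower. The difference lay with the group as a whole rather than with a few members: the interquartile range of the members ran from -0.56 to -0.25 and the full range from -0.97 in Rps27 to 0.12 in Rpl36a, the only member that was higher. No member passed the adjusted threshold of 0.05, where 0.00792% of all tested genes did, and the smallest adjusted p of a member in limma's test was 0.329. Limma's voom on the recovered fragments gave no member either, with 0.316 as the smallest adjusted p and 40 members lower at an unadjusted p under 0.05, against 8.47% of all genes. With an unadjusted p under 0.05, 34 members were lower and none was higher, where the same test called 8.08% of all tested genes lower and 3.89% higher. The 3 VO libraries lay below all 3 sham libraries for 48 members, against 12.9% of all tested genes, and above them for none, against 8.25%. In bulk tissue, fewer cells of a type and less RNA per cell cannot be told apart.

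The sum over the members' FPKM was 13133, 9362 and 9750 in sham 1 to sham 3 and 7701, 8704 and 8280 in VO 1 to VO 3, or 10748 ± 2074 in sham and 8228 ± 503 in VO (SD, n = 3 libraries each). The 3 VO sums were below the 3 sham sums, and sham 1 was far above the other 5 libraries. Members took 2.05%, 1.57% and 1.599% of all fragments on genes in sham 1 to sham 3 and 1.42%, 1.51% and 1.42% in VO 1 to VO 3.

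Sham 1 had the highest value of the 6 libraries for 73 of the 80 members. Its FPKM was 1.38 times the mean of sham 2 and sham 3 at the median member, from 0.813 times in Rpl24 to 4.27 times in Rpl21. VO 1 had the lowest value for 55 members and VO 3 for 16. Without sham 1, 73 members were still lower, the median was -0.23, and 19 had an unadjusted p under 0.05, against 4.74% of all genes tested without it. Without VO 1, 78 members were lower and 15 had an unadjusted p under 0.05, against 5.09% of all genes. With both left out, chosen as an alternative after the data were seen, the median was -0.16, 70 members were lower, and 23 were lower and 1 higher with an unadjusted p under 0.05, against 5.04% and 2.63% of all genes. Without VO 3 the number was 14, where 7.74% of all genes were lower with such a p.

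**Figure D1:**
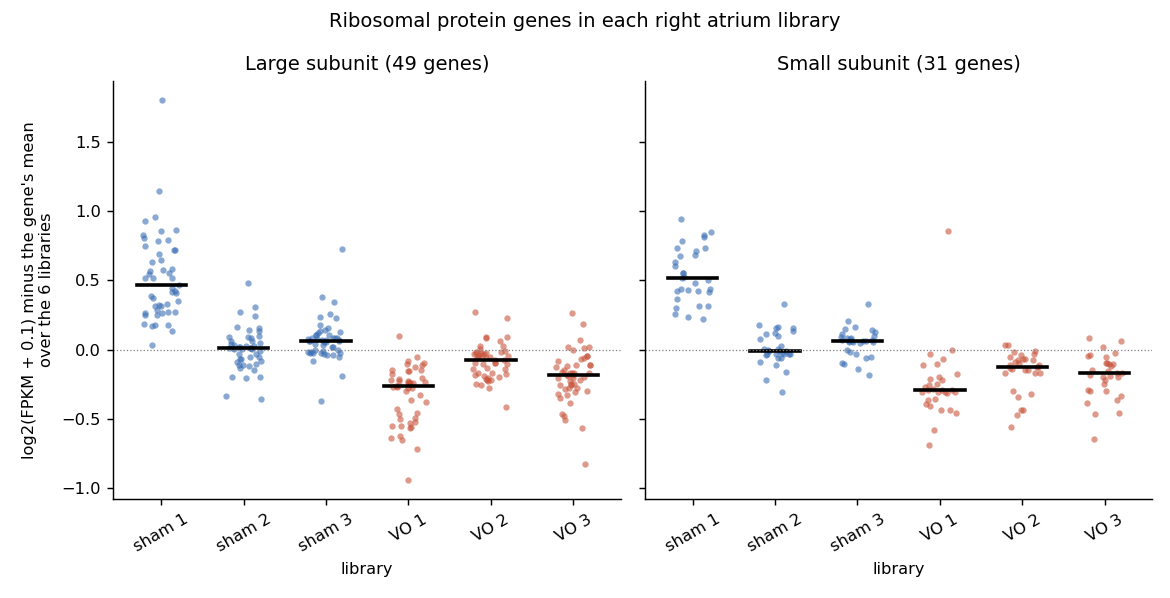
Each point is 1 tested member in 1 library, as log2(FPKM + 0.1) minus the mean of that gene over the 6 libraries, with large subunit genes on the left, small subunit genes on the right and a black line at the median. Nearly every gene lies above its mean in sham 1 and below it in VO 1, sham 2 and sham 3 sit near 0, and the single high point in VO 1 on the right is Rps27a.

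The way the libraries are put on 1 scale also set the size of the difference. With the fragments on genes as depth, the median of the members was -0.26 and that of all genes 0.08, 74 members were lower, and 23 were lower with an unadjusted p under 0.05, against 4.98% of all genes. With TPM, where all genes of a library sum to the same total, the median of all tested genes moved to 0.13 and that of the members to -0.22, 74 members were lower, and 21 were lower with an unadjusted p under 0.05, against 3.85% of all genes. With quantile normalization the median of the members was -0.19, 65 members were lower, and 19 were lower and 1 higher with such a p, against 6.6% and 4.05% of all genes. Of 24 alternatives, 17 gave other log2 fold changes, and 55 of the 78 members tested under all were lower in VO in each of these. The matching share of all genes is not given here, so this count has no background to be read against. For 8 members the unadjusted p was under 0.05 in all alternatives, of which 23 could move a p. Of the 7142 genes tested in each, 2.69% were lower with such a p in all. With the dependence of each library on the level and length of genes removed, chosen after the data were seen, the median of the members was -0.15, 64 were lower, and 13 were lower and 2 higher with an unadjusted p under 0.05, against 6.68% and 4.89% of all genes. The 8 genes were Rpl13, Rpl23, Rpl27, Rpl30, Rpl35, Rps16, Rps20 and Rps23, named here after their values were seen.

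**Figure D2:**
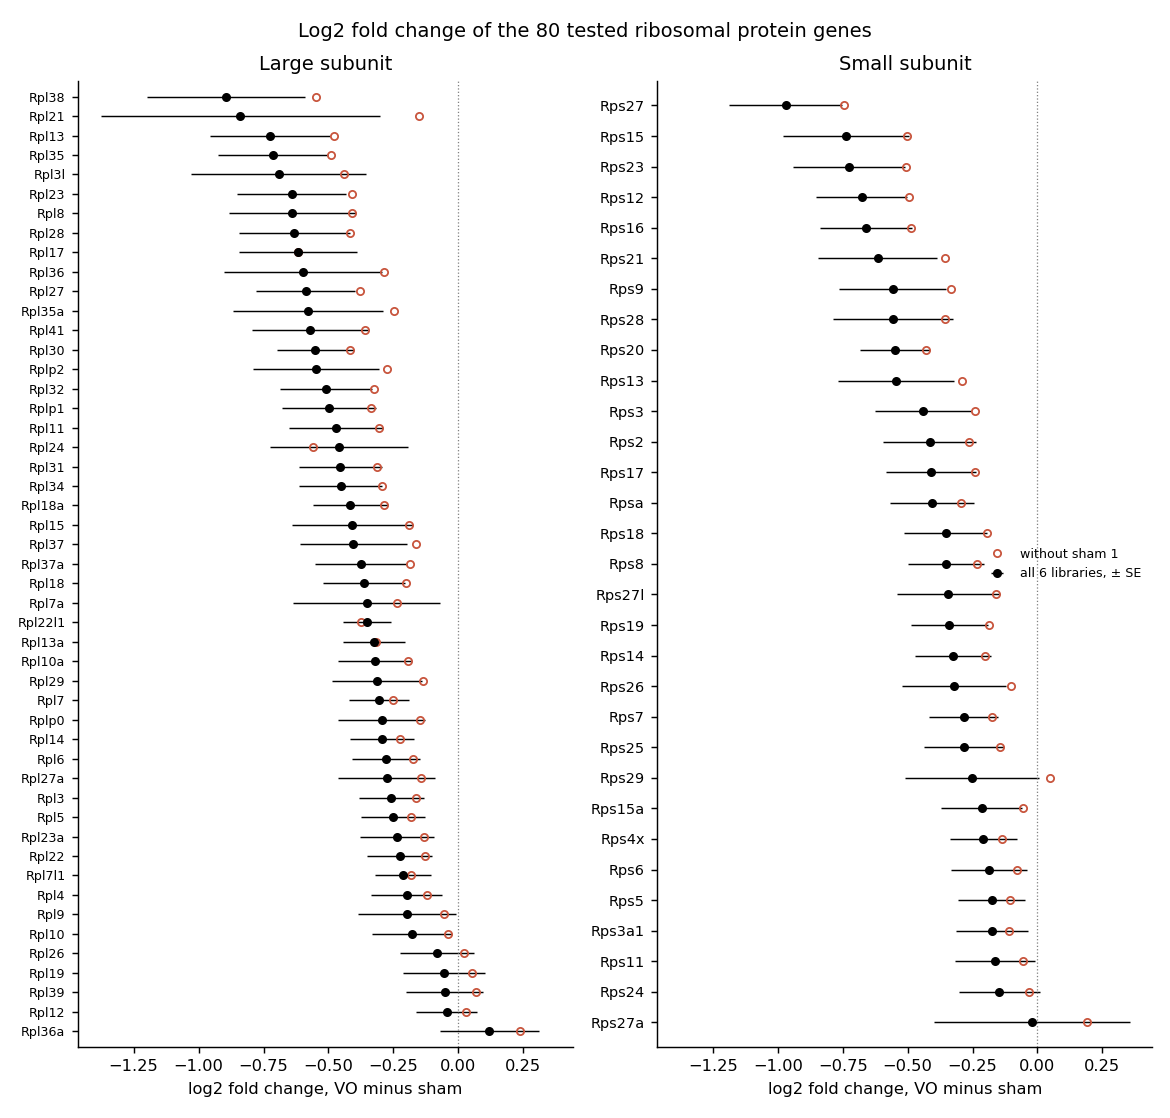
Log2 fold change (VO minus sham) of the 80 tested members, in order of size within the large (left) and the small (right) subunit, with bars of 1 standard error. Filled points use all 6 libraries and open points leave out sham 1, which moved most members toward 0. Rpl36a is the only filled point above 0.

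The second question was whether the subunits differed. The median log2 fold change was -0.37 over the 49 tested large subunit genes and -0.35 over the 31 small subunit genes. Of the large subunit genes 48 were lower, 20 with an unadjusted p under 0.05 and 29 with no overlap between groups, and of the small subunit genes 31, 14 and 19, where 8.08% of all tested genes were lower with such a p and 12.9% without overlap. Without sham 1 the numbers with such a p were 11 and 8, against 4.74% of all genes, and the medians were -0.24 and -0.20. The summed FPKM of the large subunit was 7625, 5396 and 5595 in sham 1 to sham 3 and 4389.6 in VO 1, 5053 in VO 2 and 4733 in VO 3. That of the small subunit was 5508, 3966 and 4155 in the sham and 3312, 3650.2 and 3547 in the VO libraries. The ratio of the sums was 1.38, 1.36 and 1.35 in sham 1 to sham 3 and 1.33, 1.38 and 1.33 in VO 1 to VO 3. The ratio thus differed between groups, 1.36 ± 0.0190 against 1.35 ± 0.0317 (SD, n = 3 each), by less than it differed between libraries of a group, also for sham 1, in which both sums were high.

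**Figure D3:**
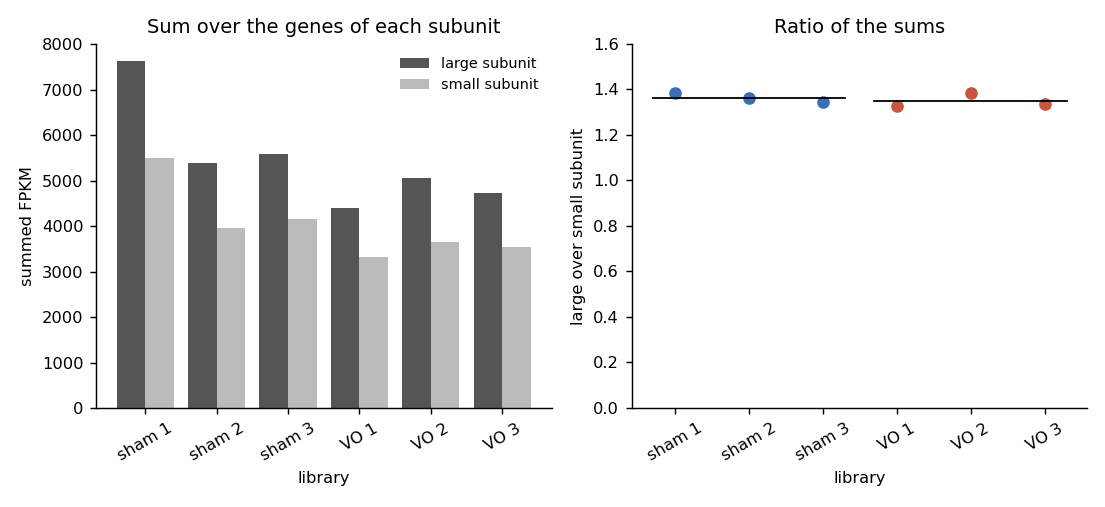
Left, summed FPKM of the large (dark) and small (light) subunit genes in each library, with bars from 0. Right, large over small subunit in each library (points, sham blue, VO red) with the group mean as a line. Both sums were highest in sham 1 and lowest in VO 1, at 7625 and 5508 and at 4389.6 and 3312, while the ratio lay between 1.33 and 1.38.

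The 5 lower members with the smallest p-value were Rps27, Rps20, Rps12, Rpl22l1 and Rps16, and Rpl36a stood alone on the other side. Rps20, Rps16 and Rps12 are structural proteins of the small subunit, and Rpl22l1 is a paralog of Rpl22 of the large subunit. Rps20 (ENSMUSG00000028234; chromosome 4, 3831334 to 3835665, minus strand, GRCm38) was read at 70.9, 52.8 and 56.9 in sham 1 to sham 3 and 43.1, 39.0 and 40.3 in VO 1 to VO 3. Every VO library was below every sham library, at 60.2 ± 9.53 FPKM in sham and 40.8 ± 2.07 in VO (SD, n = 3), with a log2 fold change of -0.55 (SE 0.14, unadjusted p = 0.00472, limma's adjusted p = 0.355). Rps16 (ENSMUSG00000037563; chromosome 7, 28350652 to 28353155, plus strand) was read at 182, 127 and 126 in sham 1 to sham 3 and 82.7, 102 and 87.0 in VO 1 to VO 3. The groups did not overlap, and the log2 fold change of -0.66 (SE 0.18, unadjusted p = 0.00733, limma's adjusted p = 0.373) rested on 1812 to 3578 fragments per library.

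Rpl22l1 (ENSMUSG00000039221; chromosome 3, 28805436 to 28807424, plus strand) was read at 14.3, 14.6 and 15.3 in sham 1 to sham 3 and 12.1, 11.5 and 10.9 in VO 1 to VO 3. It was the member among these 5 in which sham 1 did not stand out, at 0.961 times the mean of sham 2 and sham 3. The spread was small in both groups, at 14.7 ± 0.486 FPKM in sham and 11.5 ± 0.569 in VO (SD, n = 3), with a log2 fold change of -0.35 (SE 0.09, unadjusted p = 0.007, limma's adjusted p = 0.373), and -0.37 without sham 1. Part of its mRNA, 28.8% of the bases, lies within exons of another gene.

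Rpl36a, a large subunit gene on chromosome X, was read at 42.6, 29.8 and 37.0 in sham 1 to sham 3 and 31.1, 45.3 and 42.7 in VO 1 to VO 3. The groups overlapped, with a log2 fold change of 0.12 (SE 0.19, unadjusted p = 0.551, limma's adjusted p = 0.775). Of the stretches of 150 bases in its mRNA, 81.1% also occur in another gene. Summed with the genes that share them, Rpl36a had a log2 fold change of 0.03 (SE 0.19, limma's adjusted p = 0.958). Rps27a, which encodes ubiquitin fused to a small subunit protein, was the tested member with the largest spread within VO on the log2 scale (SD 0.75). It was read at 45.5, 27.2 and 31.3 in sham 1 to sham 3 and 60.9, 24.8 and 24.5 in VO 1 to VO 3, so that VO 1 was above and VO 2 and VO 3 were below all sham libraries, and its log2 fold change of -0.02 turned to 0.19 without sham 1.

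Rps27 and Rps12 need to be read together with their copies. Rps27 (ENSMUSG00000090733; chromosome 3, 90212522 to 90213651, minus strand) was read at 209, 123 and 136 in sham 1 to sham 3 and 90.8, 73.6 and 69.4 in VO 1 to VO 3, the lowest log2 fold change of all members at -0.97 (SE 0.22, unadjusted p = 0.00297, limma's adjusted p = 0.329). Its copy Rps27rt, on chromosome 9 from 114982366 to 114982739, was read at 118, 193 and 304 in sham 1 to sham 3 and 393, 441 and 443 in VO 1 to VO 3, with a log2 fold change of 1.16 (SE 0.32, unadjusted p = 0.00818, limma's adjusted p = 0.383). Of the stretches of 150 bases in the Rps27 mRNA, the length of 1 read, 98.0% also occur in another gene. In fragments, Rps27 had 3389, 2211 and 2313 in the sham and 1718, 1252 and 1191 in the VO libraries, and Rps27rt 689, 1243 and 1853 in the sham and 2669, 2691 and 2726 in the VO libraries. In VO, Rps27 was lower and Rps27rt higher, while the groups overlapped in their sum. Rps27 with all copies that share such a stretch had 4080, 3455 and 4166 fragments in sham 1 to sham 3 and 4390, 3952 and 3920 in VO 1 to VO 3. Fitted as 1 gene, the log2 fold change was 0.02 (SE 0.14, limma's adjusted p = 0.961).

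Rps12 (ENSMUSG00000061983; chromosome 10, 23785183 to 23787275, minus strand) showed the same arrangement. It was read at 76.5, 52.2 and 51.4 in sham 1 to sham 3 and 39.2, 33.6 and 38.0 in VO 1 to VO 3, with a log2 fold change of -0.68 (SE 0.17, unadjusted p = 0.00594, limma's adjusted p = 0.371). The copy Rps12-ps3, on chromosome 19 from 59322290 to 59322783, has the same 399 coding bases and was read at 121, 125 and 157 in sham 1 to sham 3 and 230.3, 196 and 189.9 in VO 1 to VO 3, with a log2 fold change of 0.61 (SE 0.15, limma's adjusted p = 0.348). Rps12 with its 6 copies summed to 3452, 2970 and 3008 fragments in sham 1 to sham 3 and 3556, 2721 and 2844 in VO 1 to VO 3, with a log2 fold change of -0.11 (SE 0.14, limma's adjusted p = 0.718). The values of either gene of such a pair on its own are uncertain.

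**Figure D4:**
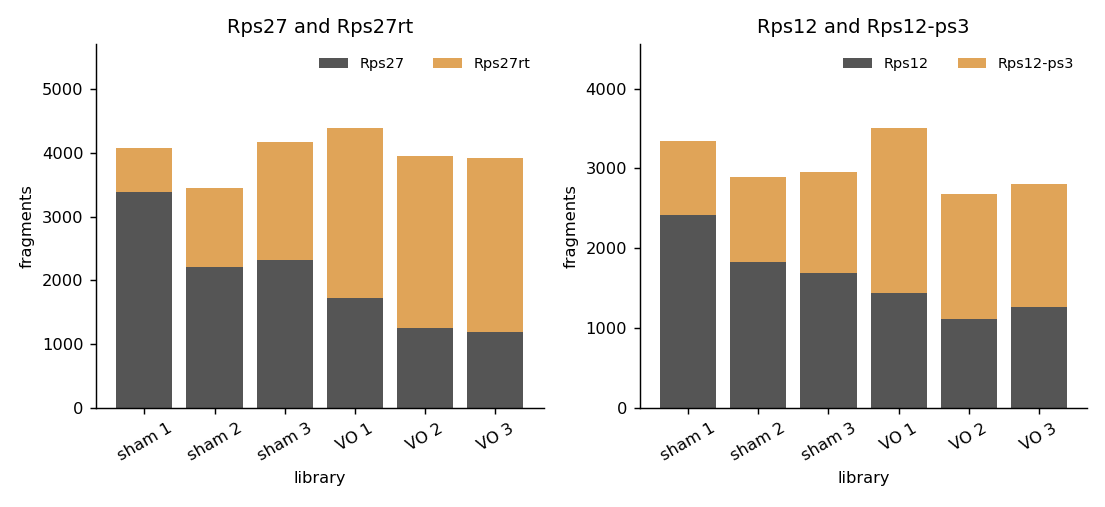
Fragments per library on Rps27 and Rps12 (dark) with those on the copy of the same coding sequence, Rps27rt and Rps12-ps3, stacked on top (orange). The dark part is smaller in each VO than in each sham library, from 3389 to 1191 fragments for Rps27, while the full bars of both groups overlap.

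Genes that share a stretch were common but rarely took as many fragments. For 69 members at least 1 other gene in the table shares a stretch of 150 bases, and these genes held a median of 7.37% of the summed fragments. They held over 50% in 5 members, namely Rps10, Rpl21, Rpl17, Rpl24 and Rpl7a, named here for this share. Not all of them are copies. Where they held over 10%, in 27 members, the one with the most fragments was annotated as protein-coding in 8, such as BC004004 for Rpl21, and its own fragments are then part of the sum. The 295 genes named after a member with the ending -ps held 4.34% to 4.89% of the members' fragments, and 50 of the 63 tested were lower, 25 with an unadjusted p under 0.05, where 51.5% of all tested genes were lower and 8.08% with such a p. When every member was summed with all genes that share a stretch, chosen as an alternative after the data were seen, 78 of 81 members were lower, 32 with an unadjusted p under 0.05, where 8.06% of all genes were, and the median log2 fold change was -0.35. Rps27 was the 1 member whose sign turned. The 12 tested members that share no such stretch with any other gene were all lower, with a median of -0.39, and 5 of them (Rps15, Rpl8, Rpl32, Rps21 and Rps3, listed after their values were seen) had an unadjusted p under 0.05. Without sham 1 that median was -0.21.

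Members with known roles outside the plain order of the subunits were read as follows. Rplp0, Rplp1 and Rplp2 form the stalk of the large subunit, which takes up elongation factors. Rplp1 had the highest FPKM of all members, at 1080.5, 794 and 738 in sham 1 to sham 3 and 576, 630.3 and 618 in VO 1 to VO 3. All VO libraries were below all sham libraries, with a log2 fold change of -0.50 (SE 0.18, unadjusted p = 0.0284, limma's adjusted p = 0.408). Rplp0, often used as a reference gene in qPCR, was read at 605, 447 and 438 in sham 1 to sham 3 and 384, 432 and 387 in VO 1 to VO 3, also without overlap, with a log2 fold change of -0.29 (SE 0.17, unadjusted p = 0.123, limma's adjusted p = 0.468). Rplp2 was read at 99.1, 56.4 and 55.1 in sham 1 to sham 3 and 39.4, 48.2 and 51.7 in VO 1 to VO 3, and sham 1 was at 1.78 times the mean of sham 2 and sham 3. Its log2 fold change of -0.55 (SE 0.24, unadjusted p = 0.0586, limma's adjusted p = 0.414) became -0.28 without sham 1.

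Rpl5 and Rpl11, which form a complex with 5S ribosomal RNA and can bind Mdm2, differed in how far the groups were apart. Rpl11 was read at 79.2, 54.3 and 57.3 in sham 1 to sham 3 and 38.6, 51.1 and 46.8 in VO 1 to VO 3, without overlap (log2 fold change -0.47, limma's adjusted p = 0.41). Rpl5 was read at 126, 103 and 115 in sham 1 to sham 3 and 89.0, 103 and 96.3 in VO 1 to VO 3, with VO 2 and sham 2 at nearly the same value (log2 fold change -0.25, limma's adjusted p = 0.432). The difference between these genes was not tested.

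Among small subunit genes, Rpsa, which also encodes the laminin receptor, was read at 234, 189 and 179 in sham 1 to sham 3 and 128, 165 and 161 in VO 1 to VO 3, and the groups did not overlap (log2 fold change -0.41, limma's adjusted p = 0.41). Rps6 was read at 287, 216 and 239 in sham 1 to sham 3 and 198, 226 and 224 in VO 1 to VO 3, with overlapping groups (log2 fold change -0.19, limma's adjusted p = 0.566). Rps3, which lines the mRNA entry and also acts in DNA repair, was read at 91.9, 58.2 and 62.0 in sham 1 to sham 3 and 48.0, 55.1 and 50.01 in VO 1 to VO 3. It shares no 150 bases with another gene, its groups did not overlap, and its log2 fold change was -0.44 (limma's adjusted p = 0.414). Rps19, mutated in Diamond-Blackfan anemia, was read at 36.2, 25.4 and 27.1 in sham 1 to sham 3 and 22.5, 23.7 and 23.1 in VO 1 to VO 3, again without overlap (log2 fold change -0.34, limma's adjusted p = 0.414).

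Rpl38, which is known for its part in translating Hox mRNAs, had the lowest log2 fold change of the large subunit. It was read at 112, 61.0 and 47.8 in sham 1 to sham 3 and 32.5, 43.9 and 35.6 in VO 1 to VO 3, so that the groups did not overlap but sham 1 alone was at 2.06 times the mean of the other sham libraries. Its log2 fold change of -0.89 (SE 0.30, unadjusted p = 0.0217, limma's adjusted p = 0.406) became -0.55 without sham 1. Rpl21 rested on sham 1 alone, at 17.7, 3.89 and 4.39 in sham 1 to sham 3 and 3.23, 4.46 and 3.58 in VO 1 to VO 3, and its log2 fold change of -0.84 became -0.15 without that library. It is named here because its values stood out once seen.

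Levels between members spanned a wide range on the FPKM scale, which divides by the length of the whole gene model. The 3 highest of the large subunit were Rplp1, Rplp0 and Rpl4, the last at 361, 295 and 315 in sham 1 to sham 3 and 262, 308 and 276 in VO 1 to VO 3 (log2 fold change -0.20). The 3 highest of the small subunit were Rps3a1, at 598 ± 54.0 in sham and 529 ± 29.3 in VO, Rps4x, at 354 ± 35.6 and 305 ± 11.4, and Rps15, at 321 ± 98.2 and 189.6 ± 36.3 (SD, n = 3 each). Of these 3 small subunit genes, Rps15 had an unadjusted p under 0.05 (0.0187), with limma's adjusted p at 0.404. The direction of several abundant members turned with the scaling. Rpl4, Rps3a1, Rps4x, Rps6 and Rpl10 were higher in VO with quantile normalization, at 0.08, 0.18, 0.06, 0.14 and 0.14 on the log2 scale. Rplp0 was at 0.01 with the dependence on level and length removed, and Rpl39 and Rps27a were at 0.09 and 0.12 with TPM.

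The lowest tested members were Rpl3l, Rpl24 and Rpl13a of the large and Rps15a, Rps19 and Rps28 of the small subunit. Rpl13a, part of a complex that silences inflammatory mRNAs, was read at 3.80, 3.49 and 3.95 in sham 1 to sham 3 and 2.76, 3.19 and 2.96 in VO 1 to VO 3, a narrow spread without overlap (log2 fold change -0.32, limma's adjusted p = 0.41). Rpl24 was read at 3.93, 4.79 and 4.89 in sham 1 to sham 3 and 3.59, 4.53 and 2.13 in VO 1 to VO 3, with overlap (log2 fold change -0.46). Rps28 was read at 19.3, 15.1 and 10.5 in sham 1 to sham 3 and 9.26, 11.9 and 8.64 in VO 1 to VO 3, and VO 2 was above sham 3. Rps15a was read at 38.1, 26.2 and 28.3 in sham 1 to sham 3 and 28.1, 25.1 and 25.5 in VO 1 to VO 3, with overlap (log2 fold change -0.21).

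Some low values belonged to genes that overlap another gene. In 5 members over 50% of the mRNA bases lie within exons of a second gene, namely Rpl24 (71.5%), Rpl35 (68.3%), Rps10 (63.6%), Rpl13a (59.3%) and Rpl23a (55.4%). Rps10, Rpl13a and Rpl24 had mean FPKM of 0.946, 3.36 and 3.97 over the 6 libraries, while Rpl35 and Rpl23a had 65.1 and 138. How fragments in such bases were assigned is not given in the sources used here. The gene models were also longer than the mRNA, 2.15 times at the median member and up to 7.18 times in Rpl35a, so that FPKM understates members with long models, and the order of levels is that of the gene models. Scaled to the length of the mRNA instead, taken as 1 annotated transcript per gene, Rplp1 stayed first, followed by Rps14, Rpl10, Rps3a1 and Rps4x.

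Under the filter of a mean FPKM of 1, 3 members were not tested. Rps10 was read at 1.00, 0.954 and 0.558 in sham 1 to sham 3 and 1.10, 1.25 and 0.816 in VO 1 to VO 3. Its copies held 95.8% of the fragments summed over gene and copies, mostly on the pseudogene Rps10-ps2. Rpl39l, a paralog known from testis, was at 0 to 0.148 FPKM, and Rpl10l, a testis gene that stands in for X-linked Rpl10, was at 0 in all 6 libraries, where 3 fragments would have given 0.162 to 0.189 FPKM, a limit that covers counting error only.

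The third question was whether paralogs moved apart from their partners. Each paralog was given as a percentage of the FPKM of its partner, and the log2 ratio was compared by an exact two-sided permutation of the 6 libraries, which cannot give a p under 0.1, so that no pair could pass 0.05. Of 8 pairs listed, 5 had both genes tested.

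Rpl3l (ENSMUSG00000002500; chromosome 17, 24727820 to 24736143, plus strand), the striated muscle paralog with 74.9% of coding bases the same as in Rpl3, was read at 9.78, 4.66 and 7.03 in sham 1 to sham 3 and 2.75, 5.71 and 4.70 in VO 1 to VO 3, and Rpl3 at 171, 138 and 143 in sham 1 to sham 3 and 124, 131 and 122 in VO 1 to VO 3. Rpl3l was 5.71%, 3.39% and 4.92% of Rpl3 in sham 1 to sham 3 and 2.22%, 4.37% and 3.86% in VO 1 to VO 3. The groups overlapped, with a mean log2 ratio of -4.43 ± 0.38 in sham and -4.87 ± 0.51 in VO (SD, n = 3), a difference of -0.43 (exact permutation p = 0.4, adjusted over 5 pairs p = 0.625). Both the lowest value, in VO 1, and the highest, in sham 1, came from the libraries with the lowest and the highest summed FPKM of the atrial muscle genes, and without both of them, chosen after the data were seen, the difference was 0.01.

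Rps27l, a p53-responsive paralog of Rps27, was read at 75.6, 51.2 and 50.3 in sham 1 to sham 3 and 42.2, 41.1 and 54.6 in VO 1 to VO 3, with overlapping groups and a log2 fold change of -0.35. It was 36.2%, 41.6% and 37.0% of Rps27 in sham 1 to sham 3 and 46.5%, 55.8% and 78.7% in VO 1 to VO 3. This was the only pair without overlap, with a difference of 0.62 in the log2 ratio (exact permutation p = 0.1, the smallest possible, adjusted over 5 pairs p = 0.5). The direction turned when the copies of Rps27 were counted. In fragments, Rps27l was 20.1% ± 3.78 of Rps27 with its copies in sham and 15.6% ± 2.698 in VO (SD, n = 3), and the fitted difference in log2 ratio was -0.36.

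The other 3 pairs overlapped between groups. Rpl22l1 was 31.8% of Rpl22 in sham and 28.9% in VO on average (difference in log2 ratio -0.13, exact permutation p = 0.5, n = 3 each), Rpl7l1 was 8.99% and 9.55% of Rpl7 (difference 0.09, exact permutation p = 0.4), and Rps4l, a transcribed pseudogene of Rps4x, was 5.38% and 5.86% of Rps4x (difference 0.15, exact permutation p = 0.7). After adjustment over the 5 pairs these p-values were 0.625, 0.625 and 0.7. Rpl10l and Rpl39l were at or near 0, and Rpl36al, an intronless paralog of Rpl36a outside the rule, was at 0 to 0.3 FPKM. Rpl10 was read at 239.6 ± 43.6 in sham and 209.5 ± 8.91 in VO, and Rpl39 at 85.6 ± 13.5 and 82.2 ± 8.11 (SD, n = 3 each). The partner genes Rpl7 and Rpl22 had log2 fold changes of -0.30 and -0.23, both without overlap.

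**Figure D5:**
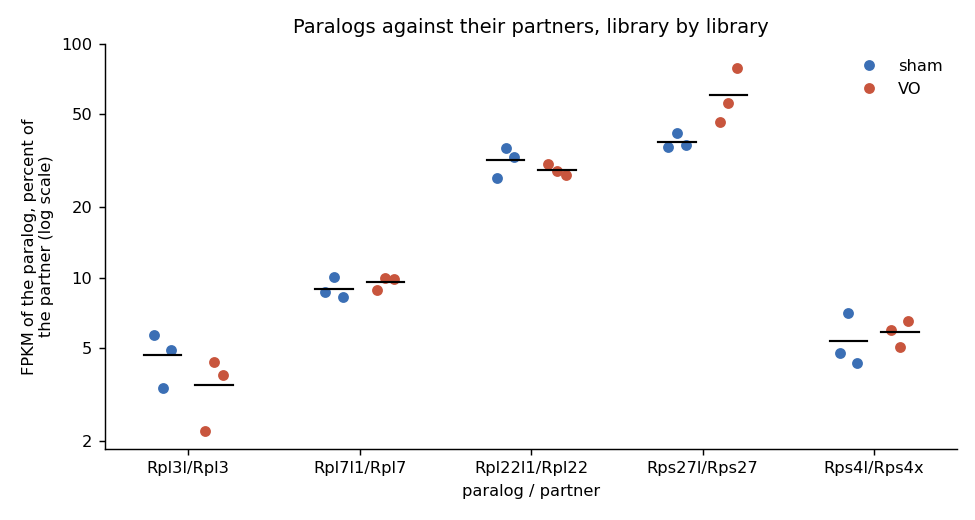
FPKM of the paralog as a percentage of its partner on a log scale, for the 5 pairs with both genes tested, with 1 point per library (sham blue, VO red) and a line at the group mean. Only Rps27l over Rps27 shows no overlap, at 36.2% to 41.6% in sham and 46.5% to 78.7% in VO, a pair in which Rps27 is counted without its copy Rps27rt.

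Across the 80 tested members, none of the sequence features followed the log2 fold change closely. Spearman's rho was 0.19 with the length of the mRNA, -0.20 with GC content, 0.15 with the mean FPKM and -0.02 with the share of 150-base stretches found elsewhere, given as a description of 80 genes that share the same 6 libraries. Members under 700 bases of mRNA had a median of -0.43 and those of 700 or more -0.33. The mRNA length is that of 1 annotated transcript per gene, which may not be the main one made. It was 5130 bases in Rps15a and 3706 in Rps20, of which 393 and 360 were coding. The order of levels was kept between libraries, with Pearson's r of 0.958 to 0.993 between the log2 values of a pair of libraries over the members.

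Other genes of ribosome making and translation, from gene lists of general knowledge, were mostly lower, where 51.5% of all tested genes were lower and 8.08% lower with an unadjusted p under 0.05, or 52.4% and 4.74% without sham 1. No gene of these passed the adjusted threshold, and the counts depended on sham 1. Of 6 tested proteins of the cytosolic ribosome outside the rule, 5 were lower, with a median log2 fold change of -0.37, or -0.23 without sham 1. Fau, which encodes ubiquitin-like protein fused to Rps30, was read at 250.2, 160.2 and 162 in sham 1 to sham 3 and 135, 130.4 and 129 in VO 1 to VO 3, and Rack1, a signaling scaffold on the small subunit, at 107, 88.7 and 92.1 in sham 1 to sham 3 and 84.0, 83.6 and 76.8 in VO 1 to VO 3, both without overlap (log2 fold changes -0.50 and -0.23, limma's adjusted p = 0.41 and 0.438).

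Of 21 genes of RNA polymerase I and its factors, which make ribosomal RNA, 16 were lower, 6 with an unadjusted p under 0.05, and 1 was higher with such a p, with a median of -0.23. Without sham 1 the 6 became 2 and the median -0.14. Cd3eap and Polr1c, subunits of the polymerase, had log2 fold changes of -0.72 and -0.35, and Twistnb and Myc were on the other side with 0.28 and 0.53. Of 9 genes for proteins that form or assemble small nucleolar ribonucleoproteins, which modify ribosomal RNA, 7 were lower, 2 with an unadjusted p under 0.05 (1 without sham 1). Gar1 was at -0.70, Fbl at -0.35, Naf1 at 0.28 and Nop58 at 0.04. Of 46 ribosome assembly factors 35 were lower, 8 with an unadjusted p under 0.05 and none higher with such a p, and the median was -0.11. Without sham 1 the 8 became 3. Bysl and Nle1 led the lower side with -0.44 and -0.45, and Rrp1b and Ddx10 the other with 0.21 and 0.19.

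Of 10 genes of translation elongation factors and their regulators 7 were lower, 5 with an unadjusted p under 0.05, with a median of -0.36. Without sham 1 the 5 became 1 and the median -0.21. Eef1a2, the form of the factor made in muscle and neurons, was read at 327, 342 and 301 in sham 1 to sham 3 and 177, 257 and 252 in VO 1 to VO 3 (log2 fold change -0.52, limma's adjusted p = 0.404), and Eef1g had -0.42. Eef2k, the kinase that inhibits elongation, and Eif5a2 had 0.41 and 0.42. Of 32 genes of initiation factors and their regulators 27 were lower and 5 had an unadjusted p under 0.05, with a median of -0.18. Among them, Eif4ebp1 and Eif4ebp2 are also counted with the genes of mTORC1 and LARP1 below. Without sham 1 none had such a p, and the median was -0.12. Eif4h and Eif1 were at -0.30 and -0.40, and Pabpc1 and Eif4ebp2 at 0.26 and 0.18. The 23 other genes known for a TOP tract, some of them in the lists above, had a median of -0.19. Of these 16 were lower, 5 with an unadjusted p under 0.05 (2 without sham 1). In 13 the groups did not overlap and VO was lower, against 12.9% of all tested genes. Vim, at 0.34, was the 1 gene higher in all 3 VO than in all 3 sham libraries, against 8.25%.

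Genes of mTORC1 and LARP1, which control translation of these mRNAs, had a median log2 fold change near 0 over 15 genes. Of these, 8 were lower and 7 higher, and without sham 1 the median was -0.10. Akt1s1 and Deptor both encode inhibitors bound to mTORC1. Akt1s1 was read at 19.9, 15.7 and 14.8 in sham 1 to sham 3 and 9.24, 13.7 and 11.1 in VO 1 to VO 3 and Deptor at 4.64, 4.81 and 4.52 in sham 1 to sham 3 and 5.63, 7.38 and 8.89 in VO 1 to VO 3, both without overlap and in opposite directions (log2 fold changes -0.57 and 0.61, limma's adjusted p = 0.404 and 0.383). Eif4ebp1 and Pdcd4 had -0.51 and 0.16, with overlap.

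Cell type markers were summed over the genes that passed the filter. All 9 atrial muscle genes were lower, 5 with an unadjusted p under 0.05 (1 without sham 1), where 8.08% of all tested genes were (4.74% without it). Their median log2 fold change was -0.59, or -0.52 without sham 1, and their summed FPKM was 22302 to 28807 in sham and 10808 to 19453 in VO, highest in sham 1 and lowest in VO 1 as for the members. The mean deviation of the 80 members from their own mean on the log2 scale was 0.53, 0.01 and 0.06 in sham 1 to sham 3 and -0.30, -0.11 and -0.19 in VO 1 to VO 3, and that of the 9 atrial genes was 0.54, 0.21 and 0.24 and -0.78, 0.07 and -0.28. All 10 tested immune genes were higher in VO, 1 with an unadjusted p under 0.05, with a summed FPKM of 293 to 399.8 in sham and 337 to 1436 in VO. VO 1 stood apart. The mean deviation of these genes was -0.23, -0.41 and -0.47 in sham 1 to sham 3 and 1.49, -0.38 and -0.01 in VO 1 to VO 3. Of 9 fibroblast genes 6 and of 7 endothelial genes 5 were higher, with sums of 1999 to 2472 and 211 to 223 in sham and 1622 to 2177 and 221 to 232 in VO. With an unadjusted p under 0.05, 3 fibroblast genes and 1 endothelial gene were higher and 1 endothelial gene was lower. Of all tested genes 3.89% were higher and 8.08% lower with such a p.

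Red cell genes summed to 1198 to 6974 FPKM in sham and 696 to 8585 in VO, highest in VO 1 and sham 1. Of 5 smooth muscle and pericyte genes 3 were higher and 2 lower, with sums of 225 to 295 in sham and 172 to 236 in VO. Adipocyte genes summed to 34.0 to 46.9 FPKM in sham and 39.1 to 508 in VO, and Adipoq, Plin1, Cidec, Ucp1 and Lep were at 0 in VO 1 and VO 2. Ventricular genes summed to 121 to 308 in sham and 92.7 to 143 in VO, and Mki67 and Top2a, of dividing cells, to 1.46 to 2.12 and 1.66 to 9.86. Most skeletal muscle genes were near absent, with Myh1 at 0 in all libraries and 2 of 9 tested. These 2 summed to 5.78 to 8.78 FPKM in sham and 0.626 to 5.25 in VO, lowest in VO 1. Both were lower, with a median log2 fold change of -1.93, and 1 had an unadjusted p under 0.05. No thymus or lymphocyte gene of 7 reached the filter. The part of these cell types in the lower values of the members was not tested.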

How the data were processed

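RNA-seq of 6 RA libraries (150-bp paired-end reads) was analysed. Per the submitters' processing notes and the methods, the authors aligned reads to GRCm38/mm10 with HISAT2 (version 2.0.5), counted fragments with featureCounts (version 1.5.0-p3) and deposited FPKM per gene, in 1 table of 54093 complete genes. Settings for multi-mapping reads, overlapping genes and strand are not given in the sources used here, and 1 incomplete line was left out. FPKM times model length and depth gave whole fragments for 100% of values (tolerance 0.1). The depth behind the deposited FPKM was 0.943 to 1.08 times the fragments on genes, so the values came scaled between libraries, by a step not given in the sources used here, and median-of-ratios factors were 1.00 in all libraries.

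Values were scaled by these factors, taken as log2(FPKM + 0.1) and tested with limma (version 3.58.1, R 4.3.3, trend, two-sided) over 12627 genes (FPKM averaging 1 or more over the libraries), with Benjamini-Hochberg adjustment and a threshold of 0.05. A fold change on this scale understates the change of low genes. The code was checked on simulated data, drawn with the same spread setting for every gene and no outlying library. There limma found 85 of 100 2-fold and 100 of 100 4-fold changes, with 14 false calls. These rates do not measure power in the real libraries, whose spread was not matched. Libraries were grouped by their labels, and the same replicate number was not taken as a pair. Reads of 150 bases shared between genes, exon overlap and coding identity came from GENCODE vM21 (98.4% of shared genes at the same coordinates), and starts from RefSeq GRCm38.p6. Python 3.11.15, Biopython 1.88, SciPy 1.17.1 and matplotlib 3.10.9 were used.

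Members and gene lists were chosen with earlier results of these data known. Named were the 5 members with the smallest p in each direction, both genes of each paralog pair, the 3 highest and 3 lowest of each subunit, members under the filter, 12 members with known roles, and up to 2 genes with the smallest p in each direction of each pathway list. Alternatives covered the pseudocount, the filter, scaling, the variance model, voom on fragments, sums with pseudogenes, a replicate block and each library left out. Of these, 4 were added after the data were seen.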

Additional observations from a re-analysis of the deposited data

How the results depend on the processing

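The median log2 fold change of the members stayed below 0 under the 17 of 24 alternatives that gave other log2 fold changes. The deposited FPKM without scaling gave the same values, since all 6 scaling factors were the same. The number of all tested genes with an adjusted p under 0.05, 1 with all 6 libraries, was 2 with a pseudocount of 1, 3 with a mean FPKM of at least 0.1, 3 without a variance trend, and 0 with quantile normalization, robust variance, both trend removals, sham 1 and VO 1 both left out, and each library left out (0 to 0). The 34 members lower with an unadjusted p under 0.05 became 21 with TPM, 19 with quantile normalization, 13 with the trend in level and length removed and 13 with GC content removed as well, and 14 to 40 with 1 library left out (19 without sham 1, 15 without VO 1, 14 without VO 3). With GC content removed as well, 6.79% of all genes were lower with such a p. The 48 lower without overlap became 28, 22 and 23 with quantile normalization and the trend removals, against 10.4%, 10.8% and 11.2% of all genes. Under these settings 4, 4 and 5 members were higher without overlap, against 8.92%, 9.1% and 8.93% of all genes. The median of the small subunit was -0.14 and -0.11 with the trend removals, and the difference between the subunit medians was -0.0842 with quantile normalization. The cause was not tested.

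With the replicate number as a block, 0 genes of all tested had an adjusted p under 0.05. In that fit 18 members were lower with an unadjusted p under 0.05, against 4.82% of all genes. Same-numbered libraries did not deviate together (r = -0.108, 0.0112 and -0.0292), so the block is given only here.

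Some directions turned. The log2 ratio of Rpl7l1 to Rpl7 was -0.12 with quantile normalization and -0.0398 and -0.011 with the trend removals, that of Rps4l to Rps4x was -0.0428 with quantile normalization, that of Rpl3l to Rpl3 was 0.0117 without sham 1 and VO 1, and that of Rps27l to Rps27 was -0.36 with shared copies summed. Among log2 fold changes of named genes, those that turned were Rpl39 0.0878, Rps4l 0.0799 and Rps27a 0.12 with TPM, Rpl39 0.0422, Rps4l 0.0345 and Rps27a 0.073 with fragment totals, Rpl10 0.14, Rpl39 0.16, Rps4l 0.0214, Rps4x 0.0643, Rpl4 0.0752, Rps3a1 0.18, Rps6 0.14, Rps27a 0.12 and Nop58 -0.0287 with quantile normalization, Rpl10 0.0824, Rpl39 0.22, Rps4l 0.18, Rps4x 0.0933, Rplp0 0.0129, Rpl4 0.0743, Rps3a1 0.19, Rps6 0.11, Rps27a 0.17 and Nop58 -0.0726 with level and length removed, Rpl10 0.0362, Rpl39 0.19, Rps4l 0.24, Rps4x 0.0653, Rplp0 0.0334, Rpl4 0.0431, Rps3a1 0.16, Rps6 0.17, Rps27a 0.12 and Nop58 -0.10 with GC content removed as well, Rpl39 0.0077 and Nop58 -0.11 without sham 1 and VO 1, and Rps27 0.0186 with copies summed. With 1 library left out, Rpl39 (-0.14 to 0.0698), Rps27a (-0.46 to 0.20), Rps4l (-0.21 to 0.0796), Rpl36a (-0.024 to 0.28) and Nop58 (-0.0416 to 0.14) turned in at least 1 case each. The cause was not tested. Depth limits Rpl10l and Rpl39l, and 3 libraries a group limit every p.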
